A study of Arabidopsis thaliana with 11 samples.

Results

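The regions described are the CENH3 peaks that the authors called on chromosomes 1 and 3 of Arabidopsis thaliana, chosen as every deposited peak on those chromosomes in any of 6 peak lists. There were 477 such peaks, 24.1% of the 1983 peaks in the lists, with 292 on chromosome 1 and 185 on chromosome 3. Overlapping peaks of the 6 lists merged into 91 sites on chromosome 1 and 73 on chromosome 3, of 661 sites on chromosomes 1 to 5.

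The study asked whether centromeres keep their places when the CENH3 protein differs strongly in sequence. Chromatin immunoprecipitation and sequencing (ChIP-seq) was done on nuclei of seedlings, 7 to 10 days old from liquid culture, digested with micrococcal nuclease. Of the 11 samples of the series, the 6 ChIP libraries with peak lists were used, and the 3 antibody controls and 2 inputs were not analysed here. The ZmCENH3 libraries came from plants homozygous for the cenh3-1 mutation that carry the maize (Zea mays) protein, precipitated with an antibody to ZmCENH3. The LoCENH3 libraries came from cenh3-1 homozygotes with the Lepidium oleraceum protein, precipitated with an antibody to LoCENH3. The AtCENH3 libraries came from wild-type Columbia plants with their own protein, precipitated with an antibody to AtCENH3. Genotype, protein and antibody thus changed together, and their parts cannot be told apart. The labels name neither the promoter of the transgenes nor the number of lines. Each variant had 2 libraries, and no label states that they came from separate cultures, so the p-values measure only a spread that may be technical.

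CENH3 is the histone H3 variant that takes the place of H3 in the nucleosomes of the centromere, where the kinetochore assembles on it. In Arabidopsis most CENH3 lies on long arrays of a short satellite repeat, with retrotransposons and their remnants in and around them. Such arrays are largely missing or collapsed in older genome assemblies, so that reads from many copies can gather on the few copies that are there. The sources used here do not give the handling of reads with several matches, and the depth over a site is therefore not a measure of CENH3 per copy.

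Depth was 13886693 and 15798998 ChIP tags in ZmCENH3, 22489151 and 23205886 in LoCENH3, and 9016364 and 13280742 in AtCENH3. The control tags were 9825449 for ZmCENH3, 12730185 for LoCENH3 and 9239707 for AtCENH3, since the lists of a variant shared a control. Depth at a summit is given below as RPM, the ChIP tags over it per 1000000 ChIP tags of the library, and the control background is given on the same scale. A library without a peak at a site gives no depth there, so an absent peak is not an absence of signal.

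ZmCENH3 covered the most sequence on both chromosomes and LoCENH3 the least, although the LoCENH3 libraries were the deepest. On chromosome 1 the peaks covered 33.5 and 33.0 kb in ZmCENH3, 13.4 and 18.0 kb in LoCENH3, and 29.7 and 23.3 kb in AtCENH3. On chromosome 3 they covered 21.2 and 24.0 kb in ZmCENH3, 5.45 and 6.85 kb in LoCENH3, and 11.6 and 7.68 kb in AtCENH3. The 3 variants did not overlap on either chromosome. The mean covered length followed the same order on chromosomes 2 and 5. On chromosome 4 it was 30.2 kb in ZmCENH3, 80.4 in LoCENH3 and 21.0 in AtCENH3. Over chromosomes 1 to 5 it was 190 kb in ZmCENH3, 135 in LoCENH3 and 120 in AtCENH3. The log2 ratio of covered length was 0.34 ± 0.25 for ZmCENH3 over AtCENH3 on chromosome 1 and 1.26 ± 0.44 on chromosome 3 (SD of the difference, n = 2 each). For LoCENH3 over AtCENH3 the log2 ratio was -0.76 ± 0.39 on chromosome 1 and -0.63 ± 0.48 on chromosome 3. Each of these exact two-sided permutation tests gave p = 0.333, the smallest that 2 libraries against 2 allow, and an adjusted p of 0.533 over 24 tests, so none could pass a threshold of 0.05. The ZmCENH3 excess on chromosome 3 was 0.54 in log2 with lists of 255 peaks each.

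Peak numbers varied most between the AtCENH3 libraries. Chromosome 1 had 60 and 58 peaks in ZmCENH3, 33 and 37 in LoCENH3, and 63 and 41 in AtCENH3. Chromosome 3 had 55 and 52 peaks in ZmCENH3, 17 and 15 in LoCENH3, and 30 and 16 in AtCENH3. On chromosome 1 the ZmCENH3 counts thus lay between the AtCENH3 counts, while on chromosome 3 both ZmCENH3 counts were above every other library. Over chromosomes 1 to 5 the mean count was 404.5 in ZmCENH3, 301 in LoCENH3 and 285 in AtCENH3.

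**Figure D1:**
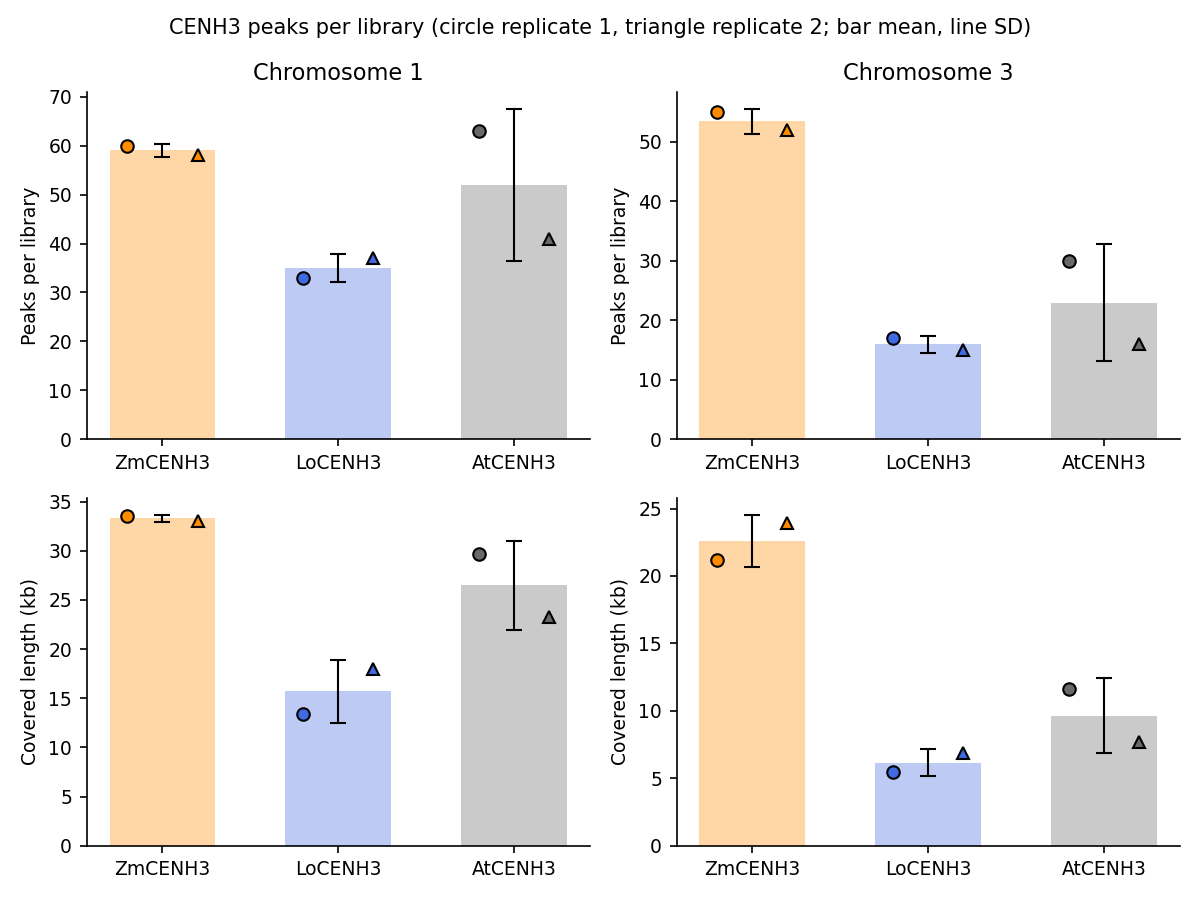
Number of CENH3 peaks (upper panels) and covered length in kb (lower panels) on chromosomes 1 and 3, with ZmCENH3, LoCENH3 and AtCENH3 from left to right. Circles are replicate 1, triangles replicate 2, bars the mean and lines the SD (n = 2). On chromosome 3 both ZmCENH3 libraries covered more than 20 kb and every other library less than 12 kb.

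The length of a typical peak did not separate the variants. The median length on chromosome 1 was 304.5 and 327.5 bp in ZmCENH3, 303 and 322 bp in LoCENH3, and 269 and 334 bp in AtCENH3. On chromosome 3 it was 247 and 297 bp in ZmCENH3, 222 and 251 bp in LoCENH3, and 240 and 252.5 bp in AtCENH3. Every pair of variants overlapped (exact permutation p between 0.667 and 1). The longest peaks did differ, since the longest LoCENH3 peaks on chromosome 1 were 892 and 2510 bp, against 4040 and 4045 bp in ZmCENH3 and 2974 and 2986 bp in AtCENH3. Peaks of exactly 165 bp, the length to which tags were extended, numbered at most 4 in any library on either chromosome.

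Some sites were 1 peak in one library and several shorter peaks in another. Among chromosome 1 sites with a peak in both replicates of the variant, 3 of 48 were split into more than 1 peak in ZmCENH3, against a background of 8.08% on chromosomes 1 to 5. In LoCENH3 8 of 18 were split, against 23.3%, and in AtCENH3 7 of 32, against 14.3%. On chromosome 3 the split sites were 4 of 38 in ZmCENH3, 1 of 10 in LoCENH3 and 3 of 15 in AtCENH3.

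Spacing was measured within the 3 Mb that held the most AtCENH3 peak bases, from 13.74 Mb on chromosome 1 and from 12.75 Mb on chromosome 3, as the median distance between neighbouring summits of a library, with no test. On chromosome 1 it was 1932 and 1727 bp in ZmCENH3, 1318 and 1233 bp in LoCENH3, and 1958 and 1334 bp in AtCENH3. On chromosome 3 it was 2255 and 3272 bp in ZmCENH3, 8143 and 11185.5 bp in LoCENH3, and 2340 and 4553 bp in AtCENH3. LoCENH3 summits were thus the closest together on chromosome 1 and the farthest apart on chromosome 3, where few LoCENH3 peaks were called. On chromosome 1, 17 of 33 and 20 of 37 LoCENH3 peaks lay in the 19.1 kb group described below, over 10 and 13 sites. Some of these neighbouring summits therefore belonged to the same split site.

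On chromosome 1, peaks joined over 200 kb formed 11 groups, of which 4 lay in the 3 Mb window. The main group spanned 976 kb, from 14509481 to 15485084 (TAIR10), with 60 of the 91 sites. A second dense group of 15 sites lay in 19.1 kb, from 16509807 to 16528880, centred 1435 kb from the highest site. The other groups of the window had 5 sites between 13941414 and 14239215 and 3 sites between 15700024 and 15785518.

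The highest site of chromosome 1 ran from 15081992 to 15086106 and overlapped AT1G40104, a protein-coding locus that the table gives no symbol. Its summit depth was 1304 and 1490 RPM in ZmCENH3, 886 and 1504 in LoCENH3, and 1380 and 1525 in AtCENH3. These ranges overlapped, and LoCENH3 replicate 1 stood below the other 5 libraries. The fold over the control at the summit did separate the variants, with 4.99 and 5.72 in ZmCENH3, 6.61 and 11.2 in LoCENH3, and 18.0 and 22.3 in AtCENH3. The control background there was 261 and 260 RPM for ZmCENH3, 134 and 134 for LoCENH3, and 76.7 and 68.2 for AtCENH3, and its part in the fold is direct, since the fold is the ratio of the ChIP to that background.

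This site held 62.0 and 65.2% of the summed pile-up of chromosome 1 in ZmCENH3, 86.6 and 82.0% in LoCENH3, and 84.5 and 89.4% in AtCENH3. The sum counts a site once per peak, and the site was 1 peak in both ZmCENH3 libraries, 4 and 3 peaks in LoCENH3, and 3 and 4 peaks in AtCENH3. With only the highest summit of each site counted, its share was 62.7 and 65.8% in ZmCENH3, 72.0 and 73.8% in LoCENH3, and 70.9 and 74.8% in AtCENH3. ZmCENH3 was lowest by both counts, and LoCENH3 and AtCENH3 overlapped. For the whole main group, the difference of ZmCENH3 from AtCENH3 was -14.7 ± 2.14 percentage points by summed pile-up (SD of the difference, n = 2 each, exact permutation p = 0.333, adjusted p = 0.533). It was -4.78 points with 1 summit per site, and the share of peak bases gave the opposite direction, 5.82 points.

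Outside that site, ZmCENH3 summits of chromosome 1 summed to 777 and 774 RPM, over 57 and 55 sites. LoCENH3 summits summed to 344 and 533 over 21 and 26 sites, and AtCENH3 summits to 566 and 513 over 55 and 34 sites. ZmCENH3 was above all libraries of the other variants in this sum. The site second in share, from 14509481 to 14509692 with no gene, lay at the outer end of the main group. It was 212 bp long and had 86.9 and 80.0 RPM in ZmCENH3, 63.5 and 116 in LoCENH3, and 115 and 126 in AtCENH3, so that ZmCENH3 was below AtCENH3 at this site.

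**Figure D2:**
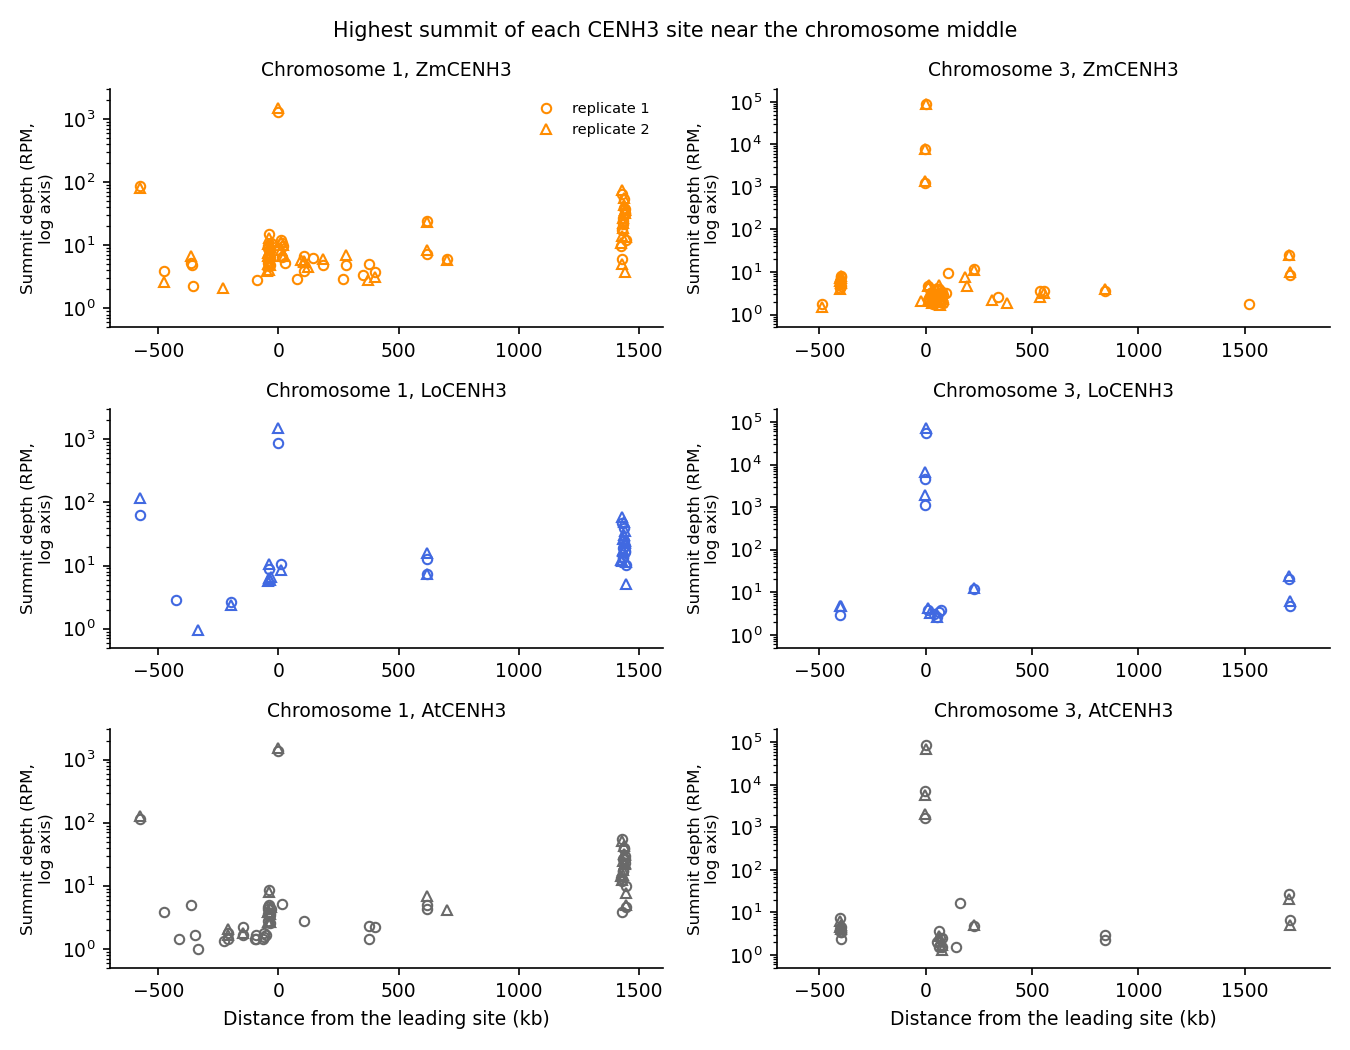
Highest summit of each site in RPM (log axis) against the distance in kb from the highest site of chromosome 1 (left) and chromosome 3 (right), for ZmCENH3, LoCENH3 and AtCENH3 from top to bottom. Circles are replicate 1 and triangles replicate 2. The highest site stands alone on chromosome 1, and 3 neighbouring sites stand far above all others on chromosome 3.

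The 19.1 kb group on chromosome 1 was the most evenly shared stretch of the chromosome, with 10 of its 15 sites called in all 6 libraries. It overlapped pseudogenes AT1G43740, AT1G43745, AT1G43750 and AT1G43755. Peaks covered 69.5 and 70.7% of it in ZmCENH3, 41.6 and 55.8% in LoCENH3, and 70.5 and 69.3% in AtCENH3. ZmCENH3 and AtCENH3 overlapped and LoCENH3 was lower.

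LoCENH3 nevertheless called the most peaks in this stretch. There were 14 and 15 peaks in ZmCENH3, 17 and 20 in LoCENH3, and 16 and 15 in AtCENH3, over 13 and 14, 10 and 13, and 14 and 13 sites. The longest was 2948 and 2944 bp in ZmCENH3, 790 and 1388 bp in LoCENH3, and 2974 and 2986 bp in AtCENH3. At the site from 16510167 to 16513155, which overlaps AT1G43740, ZmCENH3 and AtCENH3 each had a single peak and the LoCENH3 libraries had 4 and 3.

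Depth at that site was 65.5 and 74.0 RPM in ZmCENH3, 46.5 and 58.3 in LoCENH3, and 55.0 and 51.3 in AtCENH3. ZmCENH3 was above the others, and LoCENH3 and AtCENH3 overlapped. The control background was 3.77 RPM for ZmCENH3, 9.11 for LoCENH3 and 3.25 for AtCENH3, the same for both libraries of a variant because they shared a control. The fold was 17.0 and 19.2 in ZmCENH3, 5.06 and 6.36 in LoCENH3, and 16.4 and 15.3 in AtCENH3.

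At the site from 16520974 to 16522428, over AT1G43750, the depth was 39.5 and 43.8 RPM in ZmCENH3, 24.6 and 30.6 in LoCENH3, and 37.8 and 31.5 in AtCENH3. No variants overlapped. The fold there was 9.27 and 10.3 in ZmCENH3, 4.63 and 4.87 in LoCENH3, and 19.4 and 16.3 in AtCENH3. Over the whole stretch the median fold was 8.21 ± 0.523 in ZmCENH3, 3.92 ± 0.960 in LoCENH3 and 14.3 ± 0.307 in AtCENH3 (mean ± SD, n = 2). The stretch took 49.98 ± 1.64% of the summed summit depth outside the highest site in ZmCENH3, 62.1 ± 2.62% in LoCENH3 and 57.1 ± 1.71% in AtCENH3.

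**Figure D3:**
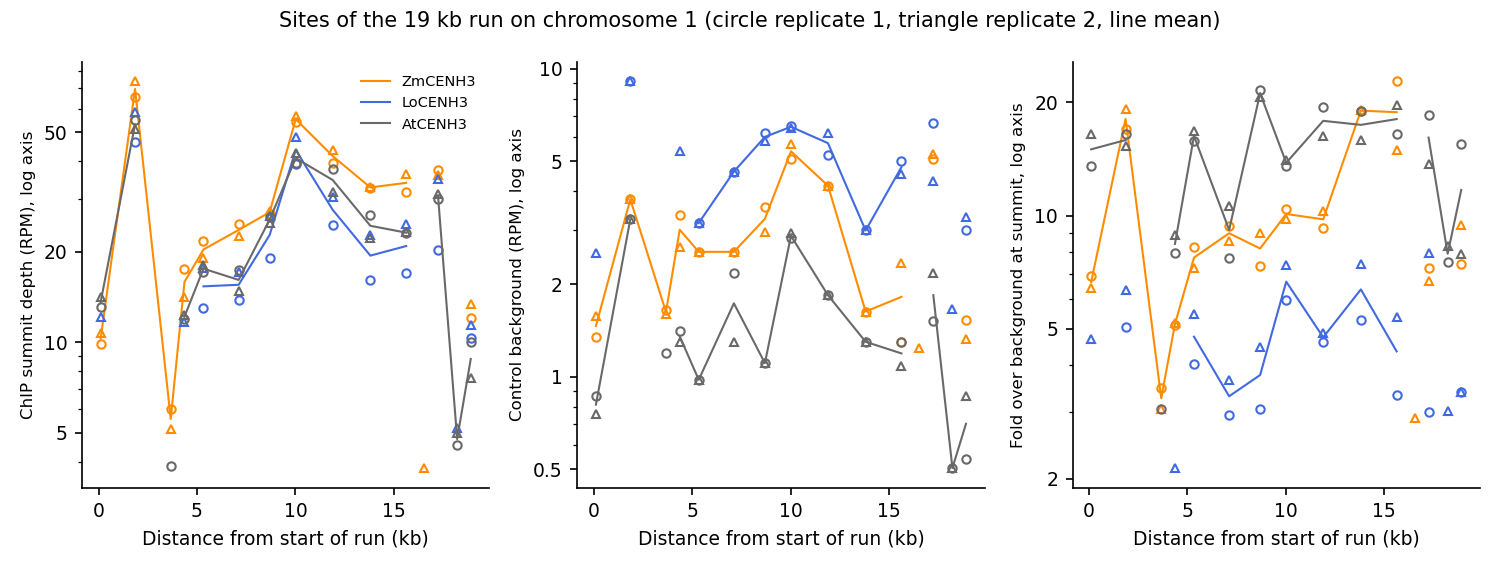
ChIP summit depth, control background (both in RPM) and fold over background at each site of the 19.1 kb group on chromosome 1, on log axes, against distance in kb from its start. Circles are replicate 1, triangles replicate 2 and lines the mean where both replicates had a peak. ChIP depth lies close together for the variants, while LoCENH3 has the highest background at most sites and the lowest fold.

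A second dense stretch of chromosome 1, from 15038208 to 15051710, lay before the highest site and differed far more. It is 13.5 kb long with 14 sites and pseudogenes AT1G40093 and AT1G40095. Peaks covered 49.3 and 48.1% of it in ZmCENH3, 3.21 and 13.5% in LoCENH3, and 34.1 and 23.2% in AtCENH3. The variants did not overlap. In AT1G40095, 3149 and 2937 bases lay under ZmCENH3 peaks, 0 and 484 under LoCENH3 peaks, and 1354 and 599 under AtCENH3 peaks. Dense stretches are sites of any library joined over 5 kb with at least 5 sites, a rule chosen after the positions were seen. ZmCENH3 had a peak at 13 and 14 of the 14 sites here, LoCENH3 at 1 and 5, and AtCENH3 at 10 and 9. The higher ZmCENH3 cover is thus partly set by that choice and is given as a description.

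Chromosome 3 was dominated by 3 neighbouring sites. Its peaks formed 8 groups, and the main one spanned 578 kb, from 13568191 to 14145776, with 47 of the 73 sites. That group held 99.87 and 99.86% of the summed pile-up in ZmCENH3, 99.96 and 99.92% in LoCENH3, and 99.91 and 99.93% in AtCENH3.

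Almost all of this lay at one site without a gene, from 13589846 to 13592557, between AT3G33055 and AT3G33058. Its summit depth was 88284 and 87507 RPM in ZmCENH3, 54537 and 72567 in LoCENH3, and 86948 and 69463 in AtCENH3. A single base thus lay under 8.83 and 8.75% of all ChIP tags in ZmCENH3, 5.45 and 7.26% in LoCENH3, and 8.69 and 6.95% in AtCENH3. Both ZmCENH3 libraries were above AtCENH3, and LoCENH3 overlapped AtCENH3. AtCENH3 replicate 1 was just below ZmCENH3 and much closer to it than to AtCENH3 replicate 2.

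The control was also high there, at 2359 RPM for ZmCENH3, 5322 for LoCENH3 and 1815 for AtCENH3. The fold was 37.4 and 37.1 in ZmCENH3, 10.2 and 13.6 in LoCENH3, and 47.9 and 38.3 in AtCENH3. The site was 1 peak of 2677 to 2712 bp in 5 libraries and 4 peaks covering 2157 bp in LoCENH3 replicate 1. Its neighbours from 13588846 to 13589650 and from 13587601 to 13587824 were also called in all 6 libraries. The nearer one had 7964 and 7937 RPM in ZmCENH3, 4686 and 6599 in LoCENH3, and 6982 and 5880 in AtCENH3. The farther one had 1250 and 1377 RPM in ZmCENH3, 1094 and 1939 in LoCENH3, and 1628 and 2096 in AtCENH3, so that ZmCENH3 was below AtCENH3 there.

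All other chromosome 3 sites were far lower. The highest of them, from 15300697 to 15301011 and without a gene, had 25.4 and 25.6 RPM in ZmCENH3, 20.9 and 24.0 in LoCENH3, and 27.3 and 21.1 in AtCENH3. The variants overlapped in depth except that both LoCENH3 libraries were below ZmCENH3. Its fold was 9.64 and 9.70 in ZmCENH3, 3.29 and 3.78 in LoCENH3, and 36.0 and 28.0 in AtCENH3, over backgrounds of 2.54, 6.28 and 0.649 RPM for the 3 variants in that order. The small site from 13817097 to 13817336, over pseudogene AT3G33080 differed more in depth than in fold. It had 11.95 and 11.1 RPM in ZmCENH3 and 11.6 and 12.7 in LoCENH3, against 4.77 and 5.19 in AtCENH3, with folds between 5.15 and 6.71 in all 6 libraries.

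ZmCENH3 peaks were longer in total than AtCENH3 peaks in the main group of chromosome 3, where they covered 13.0 and 15.9 kb in ZmCENH3, 4.501 and 4.511 kb in LoCENH3, and 7.16 and 5.11 kb in AtCENH3, and also on its arms. Part of the main group lay in stretches of low sites near the highest one. In the 21.5 kb from 13652275 to 13673794, with 15 sites and pseudogenes AT3G33065 and AT3G33070, peaks covered 23.3 and 29.5% in ZmCENH3, 2.45 and 0% in LoCENH3, and 12.3 and 5.57% in AtCENH3. In the 10.9 kb from 13619973 to 13630890 they covered 16.1 and 15.1% in ZmCENH3 and 3.11 and 0% in LoCENH3, and no AtCENH3 peak was called. From 13601523 to 13613138 they covered 7.84 and 13.3% in ZmCENH3 and 2.19 and 4.98% in LoCENH3, again with no AtCENH3 peak. Stretches were defined from the sites of any library, and most sites of these 3 had a ZmCENH3 peak, so the higher ZmCENH3 cover is partly set by that choice and is given as a description. The longest site of ZmCENH3 alone, from 13672956 to 13673794, rested on 26 and 37 tags at the summit, 1.87 and 2.34 RPM. Its folds were 4.19 and 4.15. Depth differed between such sites, and the one from 13606958 to 13607432 had 57 and 79 tags, 4.10 and 5.00 RPM.

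The group around 13.19 Mb was shared more evenly between ZmCENH3 and AtCENH3. From 13186564 to 13193725, with pseudogenes AT3G32210 and AT3G32220, peaks covered 27.6 and 27.0% in ZmCENH3, 2.78 and 11.0% in LoCENH3, and 26.7 and 21.3% in AtCENH3. LoCENH3 was again the lowest.

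On the arms of both chromosomes, ZmCENH3 libraries had the largest share of peak bases. Arm here means only outside the 3 Mb windows, and some arm sites lay near a window. The groups starting at 13180865 on chromosome 1 and 12248648 on chromosome 3 were centred at -1903 and -1340 kb from the highest site. Outside the 3 Mb windows lay 7.91 and 7.73% of the chromosome 1 peak bases in ZmCENH3, 6.43 and 2.44% in LoCENH3, and 2.73 and 5.35% in AtCENH3. On chromosome 3 the share was 23.7 and 22.4% in ZmCENH3, 6.07 and 16.6% in LoCENH3, and 14.2 and 7.01% in AtCENH3. ZmCENH3 minus AtCENH3 was 3.78 ± 1.86 percentage points on chromosome 1 and 12.5 ± 5.15 on chromosome 3 (SD of the difference, n = 2 each, exact permutation p = 0.333 and adjusted p = 0.533 for both). The windows were placed by AtCENH3 peaks, which lowers the AtCENH3 arm share by definition. By summed pile-up the differences were 0.929 and 0.0405 points, so the arm peaks were low. Most of the ZmCENH3 arm bases lay in a single group of each chromosome. The group from 142222 to 145930 held 5.63 and 5.36% of the chromosome 1 peak bases. The run from 5278678 to 5286650 held 21.7 and 19.1% of those of chromosome 3. The only other ZmCENH3 arm site of chromosome 1, from 13180865 to 13181673, held 2.28 and 2.37%, against 2.73 and 3.35% in AtCENH3. Arm peaks covered 2.60 ± 0.0714 kb in ZmCENH3, 0.650 ± 0.299 kb in LoCENH3 and 1.03 ± 0.310 kb in AtCENH3 on chromosome 1, and 5.19 ± 0.230, 0.734 ± 0.570 and 1.09 ± 0.782 kb on chromosome 3.

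Chromosome 3 carried a run of 8 arm sites from 5278678 to 5286650, centred at -8309 kb from the highest site. Peaks covered 57.8 and 57.5% of its 7.97 kb in ZmCENH3, 2.08 and 11.4% in LoCENH3, and 18.4 and 6.75% in AtCENH3. Both ZmCENH3 libraries were above the rest in this run, which was likewise defined from sites of any library, while LoCENH3 and AtCENH3 overlapped. The run overlapped pseudogenes AT3G15600 and AT3G15602. One site, from 5278678 to 5279120, was called in all 6 libraries, with 8.79 and 11.3 RPM in ZmCENH3, 6.63 and 8.45 in LoCENH3, and 4.55 and 4.74 in AtCENH3. The longest arm site, from 5283958 to 5286650 over AT3G15602, had 2327 and 2367 bases under ZmCENH3 peaks, 0 in both LoCENH3 libraries, and 777 and 165 bases in AtCENH3.

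**Figure D4:**
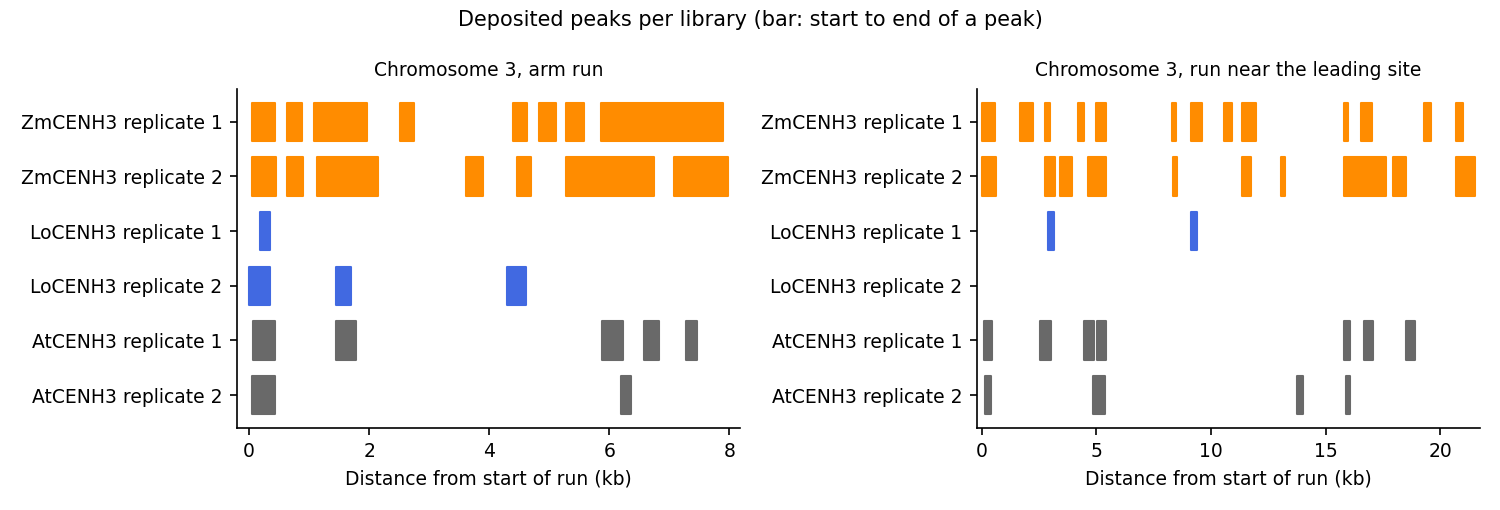
Deposited peaks of the 6 libraries, ZmCENH3 above LoCENH3 above AtCENH3, in the arm run of chromosome 3 (left) and in the 21.5 kb near its highest site (right), against distance in kb from the start of the run. A bar reaches from start to end of a peak. The ZmCENH3 libraries cover 57.8 and 57.5% of the arm run, and every other library less than 20% of it.

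The other arm sites were few. On chromosome 1, the site from 13180865 to 13181673, at the edge of pseudogene AT1G35647, was called in all 6 libraries. Its depth was 11.0 and 10.95 RPM in ZmCENH3, 9.16 and 11.2 in LoCENH3, and 11.1 and 12.0 in AtCENH3. These overlapped, yet the fold was 3.21 and 4.18 in ZmCENH3, 5.11 and 4.79 in LoCENH3, and 20.6 and 14.0 in AtCENH3, over backgrounds between 0.433 RPM in AtCENH3 and 3.36 in ZmCENH3.

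A pair of chromosome 1 arm sites was called in both ZmCENH3 libraries and in no other. They lay at 142222 to 143693 and at 145500 to 145930. The first overlapped RCAR1 (AT1G01360), an abscisic acid receptor gene, and HTR12 (AT1G01370), the gene of AtCENH3 itself, and the second only HTR12. Over both sites, ZmCENH3 peaks held 1025 and 1040 bases of RCAR1 and 636 and 502 bases of HTR12. The first rested on 149 and 149 tags, 10.7 and 9.43 RPM, with folds of 4.43 and 5.20. The second rested on 84 and 103 tags, 6.05 and 6.52 RPM, with folds of 3.78 and 3.61. No LoCENH3 or AtCENH3 peak was called there, which is not an absence of signal. The origin of the ZmCENH3 tags at these sites was not tested. Of the 6 kinetochore genes listed (HTR12, CENP-C, MIS12, KNL2, NDC80 and NUF2), 4 were found in the table, and only HTR12 had a peak. As background, 112 of the 37899 genes on chromosomes 1 to 5 had peaks in every library of at least 1 variant. With 1 gene, and that the gene of AtCENH3 itself, the count says nothing about kinetochore genes as a set.

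On chromosome 3, the site from 12250560 to 12250983 over pseudogene AT3G30695, 1 of 3 sites within 4.26 kb, was called in both ZmCENH3 libraries and in 1 library of each other variant. It had 6.77 and 6.71 RPM in ZmCENH3, 6.08 in LoCENH3 replicate 2 and 2.99 in AtCENH3 replicate 1. Away from these groups, arm peaks were called in a single library. LoCENH3 replicate 1 alone had a peak at SPL11, which encodes a transcription factor, at GRF2, which encodes a 14-3-3 protein, and at 1 more site on each chromosome. AtCENH3 replicate 2 alone had a peak at TIFY7, a gene of the jasmonate repressor family, and 1 across AT1G75210 and ERDL6, a sugar transporter gene. These 6 isolated sites rested on 35 to 60 tags at the summit.

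Sites were recovered unevenly between libraries. On chromosome 1, 15 of 91 sites had a peak in all 6 libraries, and on chromosome 3, 8 of 73, against a background of 15.4% on chromosomes 1 to 5. A single library held 35 and 31 of them, against 33.0%. Single-library sites had a median length of 205 bp on chromosome 1 and 212 bp on chromosome 3, and sites of all 6 libraries 885 and 379 bp. AtCENH3 replicate 1, the shallowest library, alone held 13 single-library sites on chromosome 1.

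ZmCENH3 peaks were found at nearly every AtCENH3 site and at others besides, as on chromosomes 1 to 5 together. Peaks in both replicates were found at 48 chromosome 1 sites and 38 chromosome 3 sites in ZmCENH3 (background 50.5%), at 18 and 10 in LoCENH3 (28.6%), and at 32 and 15 in AtCENH3 (31.8%). Both ZmCENH3 libraries had a peak at 28 of the 32 AtCENH3 sites of chromosome 1 and at all 15 of chromosome 3, beside 189 of 210 on chromosomes 1 to 5. Peaks in both ZmCENH3 libraries and neither AtCENH3 library held for 11 of 91 sites (12.1%) on chromosome 1. On chromosome 3 they held for 18 of 73 (24.7%), both against 15.6%. The reverse, both AtCENH3 and neither ZmCENH3, held for 4 and 0 sites, against 2.12%. In bases called in both replicates, the 20.3 kb shared on chromosome 1 was 67.4% of the ZmCENH3 bases and 92.8% of the AtCENH3 bases, and the 6.42 kb shared on chromosome 3 was 41.0% and 91.9%.

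LoCENH3 sites were nearly a subset of the others on these chromosomes. Both LoCENH3 libraries had a peak and neither AtCENH3 library did at 2 sites on chromosome 1 and 1 on chromosome 3, against 12.1% on chromosomes 1 to 5, where 76 of the 80 such sites lay on chromosome 4. Only 1 site was in both LoCENH3 libraries and no other, at 14887767 to 14888028 on chromosome 1, on 59 and 54 tags. Both AtCENH3 and neither LoCENH3 held at 9 and 7 sites, against 9.38%. The shared bases were 11.7 kb on chromosome 1, which was 95.3% of the LoCENH3 bases and 53.5% of the AtCENH3 bases, and 3.61 kb on chromosome 3, which was 83.1% and 51.7%.

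The sites of AtCENH3 alone had few tags. The 3 found in both AtCENH3 libraries alone, on chromosome 1 at 14872882 to 14873064 (over pseudogene AT1G40073), 14873454 to 14873840 and 14935670 to 14936169, were 183, 387 and 500 bp long and rested on 13 to 27 tags. Their folds lay between 3.06 and 9.18. At the site over AT1G40073 the background was 0.125 RPM, under summits of only 1.44 and 2.03 RPM, with folds of 6.58 and 9.18. How far these folds depend on the genome size given to the peak caller was not tested.

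Where both variants had a peak in both replicates, the ChIP depth and the fold ordered the variants differently. The depth was higher in both ZmCENH3 libraries than in both AtCENH3 libraries at 24 of 28 shared sites on chromosome 1 and 11 of 15 on chromosome 3, against a background of 83.6%. The median log2 ratio was 0.55 on chromosome 1 and 0.59 on chromosome 3, beside 0.80 on chromosomes 1 to 5. By fold, both AtCENH3 libraries were above both ZmCENH3 libraries at 17 of 28 and 10 of 15 sites, against 48.7%, and the median log2 ratio of ZmCENH3 over AtCENH3 was -0.56 and -0.21, beside -0.21. The control background of ZmCENH3 was higher, with a median log2 ratio of 1.28 and 1.02, beside 1.15.

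For LoCENH3 the gap between depth and fold was wider. The depth was above AtCENH3 in both libraries at 3 of 15 and 2 of 8 sites, against 42.7%, with a median log2 ratio of -0.19 and -0.15, beside 0.08. The fold was lower in both LoCENH3 libraries at 14 of 15 and 7 of 8 sites, against 94.2%, with a median log2 ratio of -1.58 and -1.69, beside -1.33. The LoCENH3 control background had a median log2 ratio of 1.58 and 1.47 over that of AtCENH3, beside 1.55. Between ZmCENH3 and LoCENH3, the ZmCENH3 depth was higher in both libraries at 13 of 17 and 7 of 9 shared sites, against 66.4%, and the fold at 12 of 17 and 7 of 9, against 71.8%. The background also sets which places pass the authors' threshold, and its part in the lower LoCENH3 length was not tested. These comparisons use only sites that passed that threshold in the 4 libraries compared, and each variant's libraries serve in a pair of comparisons.

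**Figure D5:**
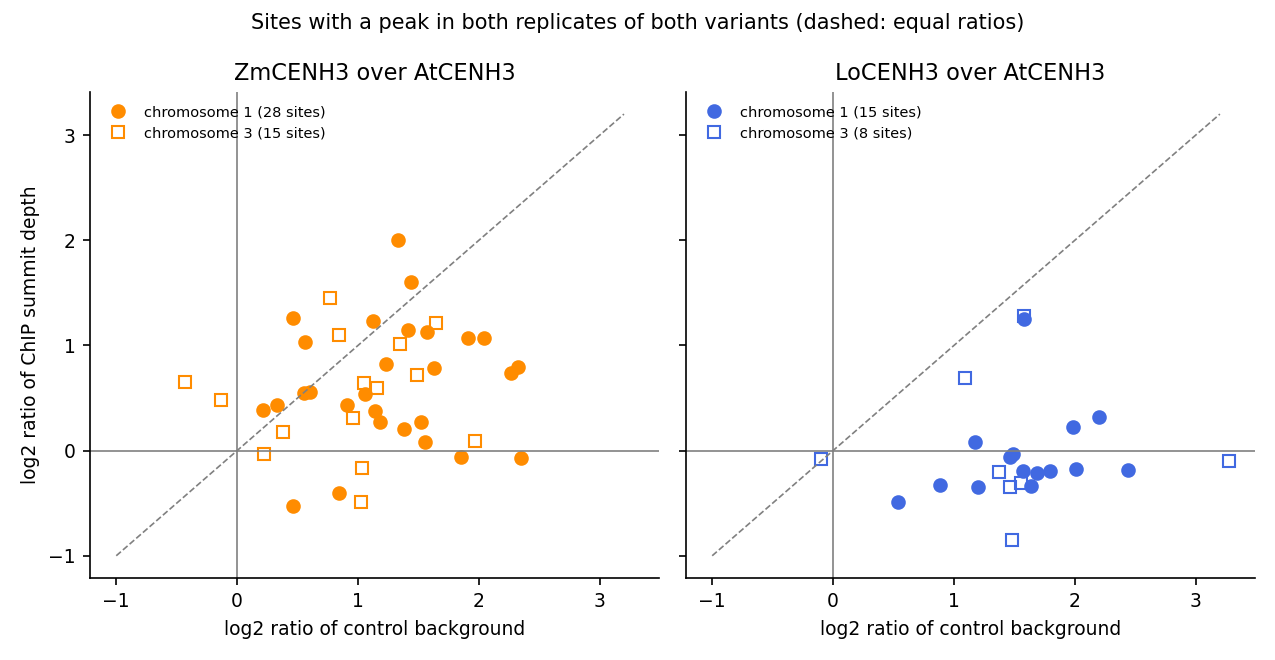
log2 ratio of ChIP summit depth against log2 ratio of control background at sites with a peak in both replicates of both variants, for ZmCENH3 over AtCENH3 (left, 28 sites on chromosome 1 and 15 on chromosome 3) and LoCENH3 over AtCENH3 (right, 15 and 8). Filled circles are chromosome 1, open squares chromosome 3, and the dashed line marks equal ratios. Most LoCENH3 points lie near 0 in depth and above 1 in background.

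Genes under the peaks were mostly pseudogenes, as on chromosomes 1 to 5 together, where 66 of 74 were in ZmCENH3, 47 of 54 in LoCENH3 and 41 of 45 in AtCENH3. Genes with a peak in both replicates numbered 11 on chromosome 1 and 13 on chromosome 3 in ZmCENH3, 5 and 2 in LoCENH3, and 9 and 5 in AtCENH3. All of those on chromosome 3 were pseudogenes, as were 8 of 11, 4 of 5 and 8 of 9 on chromosome 1. The protein-coding ones were AT1G40104 in all 3 variants, and RCAR1 and HTR12 in ZmCENH3. Those with a peak in all 6 libraries were AT1G40104 and 4 pseudogenes of the 19.1 kb group on chromosome 1, and AT3G33080 and AT3G43356 on chromosome 3.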

How the data were processed

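Per the submitters' processing notes, BWA, MACS2 and the TAIR10 build were used. Per the file headers, MACS 2.1.0.20140616 made each list from a single library at a q-value cutoff of 0.05, extended tags to 165 bp, kept all duplicates, scaled the larger of ChIP and control down, and took 2.7 Gb as the effective genome size. Which sample each of the 3 controls was is not stated there. The stated genome size sets the lowest background, from 0.551 scaled tags in AtCENH3 replicate 1 to 0.778 in the LoCENH3 libraries. Folds, q-values and calls of low sites can depend on that floor, and no other genome size was tried. Pile-up, as deposited by the authors, is a signal: scaled coverage by extended tags at the summit. The fold, as deposited, is the ratio of that coverage to the local background. The −log10 p-value and −log10 q-value were deposited as the peak caller wrote them, and peak length and 1-based positions by the authors.

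Pile-up was divided by the scaled tag total and given as RPM, per 1000000 ChIP tags. Below a pile-up of 200, 100% of summits came out as whole tags in every library (tolerance 0.005 pile-up units). The control background was solved from the fold as (pile-up + 1) / (background + 1). Sites are peaks of the 6 lists that overlap by at least 1 bp. Groups are peaks joined over 200 kb, and windows are the 3 Mb with most AtCENH3 peak bases in steps of 10 kb. Groups of 2 libraries were compared by exact two-sided permutation with Benjamini-Hochberg adjustment over 24 tests. The same counts over chromosomes 1 to 5 are given as background. Named sites were every group, the 6 sites of highest mean share and the 3 longest per chromosome, arm sites in both replicates of a variant, and up to 4 sites per variant found in it alone. Dense stretches and single-library arm sites were added after their values were seen. The members and lists were chosen with earlier results of these data known. Functions for intervals and tests were tested on simulated data, and 0 of 200 trials each differed from a direct count. Alternatives were peaks with −log10 q of at least 5, lists of equal length, other weights, joins and windows, leaving out each library, and the replicate number as a block. Names and biotypes of 37899 genes on chromosomes 1 to 5 came from RefSeq (TAIR10.1), and its numbering was assumed to be that of TAIR10. No genome sequence was used. Tools were matplotlib 3.10.9, scipy 1.17.1, pandas 2.3.3 and numpy 2.4.6 under Python 3.11.15.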

Additional observations from a re-analysis of the deposited data

How the results depend on the processing

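The design allows no call at 0.05, so direction is what can change. Of 210 alternatives of the tested differences, 189 kept the direction and 21 turned it, in 11 results. The 189 include 24 with the replicate number as a block, which cannot change a difference of means. Those 24 say nothing about stability. Covered length kept its direction under every alternative run. Leaving out a library gave log2 ratios of 0.17 to 0.52 for ZmCENH3 over AtCENH3, -0.97 to -0.55 for LoCENH3 over AtCENH3 and 0.89 to 1.31 for ZmCENH3 over LoCENH3 on chromosome 1, and of 0.96 to 1.55, -0.93 to -0.33 and 1.72 to 2.05 on chromosome 3. Differences of median peak length were not stable. The mean in place of the median gave -73.6 bp for LoCENH3 minus AtCENH3 on chromosome 1 and -10.2 bp for ZmCENH3 minus AtCENH3 on chromosome 3. ZmCENH3 minus LoCENH3 on chromosome 1 was -35.3 bp with −log10 q of at least 5 and -10.0 bp with equal lists. Leaving out a library gave -18.0 to 47.0, -21.5 to 43.5 and -8.0 to 15.0 bp on chromosome 1 for ZmCENH3 minus AtCENH3, LoCENH3 minus AtCENH3 and ZmCENH3 minus LoCENH3, and 0.75 to 50.8, -24.3 to 4.75 and 10.5 to 60.5 bp on chromosome 3.

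The share of the main group of chromosome 1 turned to 5.82 points for ZmCENH3 minus AtCENH3 and 12.7 for ZmCENH3 minus LoCENH3 by peak bases, and to 2.09 for LoCENH3 minus AtCENH3 by pile-up times length. Leaving out a library gave -16.0 to -13.3, -12.6 to -9.75 and -4.90 to -2.07 points for the same differences in that order. On chromosome 3 it gave -0.0670 to -0.0496 for ZmCENH3 minus AtCENH3, -0.0985 to -0.0536 for ZmCENH3 minus LoCENH3 and -0.0047 to 0.0401 for LoCENH3 minus AtCENH3. The arm share of LoCENH3 minus AtCENH3 turned to -1.84 points with −log10 q of at least 5 and -1.77 with equal lists on chromosome 1, and to -0.304 with −log10 q of at least 5 and -0.157 with the windows widened by 1 Mb on chromosome 3. Leaving out a library gave -1.60 to 2.39 and -4.51 to 6.01 points on chromosomes 1 and 3 for it, 2.46 to 5.09 and 8.88 to 16.0 for ZmCENH3 minus AtCENH3, and 1.39 to 5.37 and 6.45 to 17.0 for ZmCENH3 minus LoCENH3. The causes were not tested.

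Sites joined over 1000 bp numbered 22 in ZmCENH3, 8 in LoCENH3 and 11 in AtCENH3 on chromosome 1, and 25 in ZmCENH3 on chromosome 3. With 1 replicate left out, chromosome 1 had 56 to 58 sites in ZmCENH3, 22 to 27 in LoCENH3 and 35 to 56 in AtCENH3, and chromosome 3 had 51 in ZmCENH3, 14 to 15 in LoCENH3 and 16 to 26 in AtCENH3, the highest AtCENH3 counts being those without replicate 2. The replicate block left every difference as it was, such as 0.34 and 1.26 for covered length of ZmCENH3 over AtCENH3, with a smallest possible p of 0.5 in an exact permutation of signs. The replicate numbers are not stated to mark a shared batch, and deviations of same-numbered libraries over 102 sites correlated at 0.0964 to 0.25. The controls differ between variants, and depth, antibody and genotype change with them, and their parts cannot be told apart.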
